A study of Mus musculus with 20 samples.

Results

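The comparison is between the lungs of 3 mice fed a diet rich in docosahexaenoic acid (DHA, a long-chain omega-3 fatty acid) and those of 4 mice fed a control diet, all of which had received saline and no dust. These 7 mice were found by their labelled diet and exposure among 20 mice in all. The other 13 received hog dust extract (HDE), 6 on the control diet and 7 on the DHA diet. Of 547 endogenous probes on the panel, 306 had a mean scaled count of 82 or more in these 7 mice and were tested. A scaled count is the raw count of a probe divided by a lane factor made from the housekeeping genes Eef1g, Oaz1, Ppia and Rpl19. Tnfsf13b (82.8) and Thy1 (82.3) lay just inside this minimum, and Ikbke (81.0) and Tyk2 (80.3) just outside it.

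All mice were male wildtype C57BL/6J animals, 5 to 8 weeks old when obtained, and were fed their diet for 4 weeks before the challenge. The DHA diet was an AIN-93G base in which soybean oil had been exchanged for a mix of high-oleic safflower oil and DHASCO oil (39.2% DHA), so that DHA gave about 1.4% of calories. In the control diet safflower oil alone took the place of soybean oil, so both groups ate a modified fat. Each mouse was given 50 µL of sterile saline (PBS) through the nose under isoflurane, and the left lung was taken after 5 h. A saline mouse is thus a challenged and anesthetized animal without the dust, and not an untouched one. The lungs came from 3 experimental sets, which the sources used here do not assign to mice. The labels show that the 7 lanes lay on 2 nCounter runs, run 1 with 2 control and 2 DHA mice and run 2 with 2 control and 1 DHA mouse. Control mice 1 and 2 and DHA mice 1 and 2 were on run 1, and control mice 3 and 4 and DHA mouse 3 on run 2. The numbers only name the mice.

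DHA is built into the phospholipids of cell membranes, where it can replace the omega-6 fatty acid arachidonic acid. Cyclooxygenase and lipoxygenase enzymes turn DHA into resolvins and protectins, lipid mediators that are known for ending inflammation and for limiting the entry of neutrophils into tissue. The resting mouse lung holds alveolar macrophages in its air spaces, a large bed of endothelium, and pools of neutrophils, platelets and B cells in its vessels. The nCounter assay counts barcoded probes on single RNA molecules without amplification. The question put to these mice is what the diet alone did to immune transcripts before any dust was given.

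No gene passed the test for a diet difference after saline once all 306 tests were taken into account. By edgeR's quasi-likelihood test 0 genes were higher (0% of those tested) and 0 lower (0%) at an adjusted p under 0.05, and the smallest adjusted p was 0.988. At the unadjusted threshold, a p of at most 0.05 without adjustment, 1 gene was higher on the DHA diet (0.327%) and 6 were lower (1.96%). A share of 0.05 of tests passes this threshold on average where nothing differs, and a smaller share passed here. This fit left differences between the 2 nCounter runs in the spread between mice. With the run fitted as a block, as given below, 5.88% passed, so the smaller share depends on the fit. The higher gene was Ms4a1, which encodes CD20 of B cells. The lower genes were Csf3r, S100a8 and S100a9, which are typical of neutrophils, and Crlf2, Il4ra and Ccl9. DESeq2 with the same scaling also called no gene after adjustment, with 1 higher and 11 lower at the unadjusted threshold. Fold changes are given as log2 of DHA over control. They ran from -1.01 (Ppbp) to 0.80 (Cfd) with a median of -0.01, and 150 genes lay above 0 and 156 below. In 288 genes the log2 fold change was smaller than 0.5 in size. The 95% interval lay within -1 and 1, that is within a doubling or halving, in 233 genes (76.1%), and the median interval reached 0.58 to either side. The reach differed between genes, and 7 mice limit the differences that can be detected.

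All 3 DHA mice lay on one side of all 4 control mice in 5 genes. Ms4a1 was above (0.327% of tested genes), and Crlf2, Csf3r, Il4ra and Irak4 were below (1.31%). The exact permutation test of a single gene has 35 arrangements of the 7 mice, and its smallest possible p is 0.0286. Where all arrangements are equally likely, 0.0286 is also the average share of genes separated in each direction. Both shares here were smaller. Each run held both diets, however, so a gene whose values separate the runs cannot separate the diets. This lowers the share to be expected by an amount that was not worked out, and the smaller shares decide nothing. The two-sided exact p was 0.0286 for Crlf2 and for Il4ra and 0.0571 for Ms4a1, Csf3r and Irak4.

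The depth and the runs have to be known before the single genes are read. The endogenous probes gave 123536 to 486020 raw counts per mouse. The background, set at the mean plus 2 SD of the negative control probes and scaled like the genes, was 37.0 to 84.0 on run 1 and 7.75 to 20.2 on run 2. DHA mouse 2 had the lowest total and the highest background (84.0), and 303 of the 306 genes were above background in it. In the other 6 mice all 306 were. Between the runs, 95 of 306 genes (31%) differed at an adjusted p under 0.05, with 11 higher and 84 lower on run 2, and the median shift was -0.29 on the log2 scale. Housekeeping probes shifted unequally. Among those not used for scaling, Gapdh had 8217 to 8790 scaled counts on run 1 and 2864 to 3314 on run 2, and Sdha 378 to 427 and 382 to 448. Of the scaling genes, Oaz1 had 2679 to 3098 and 1864 to 2115, and Eef1g 689.9 to 899.9 and 894 to 1223. Run 1 and run 2 each held both diets, so the run was also fitted as a block. With the block 0 genes passed the adjusted threshold (smallest adjusted p 0.571), and 18 passed at the unadjusted threshold (5.88%), 1 higher and 17 lower. The log2 difference had the same sign in both runs in 138 of 306 genes (45.1%). On run 2 this difference rests on 1 DHA mouse.

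**Figure D1:**
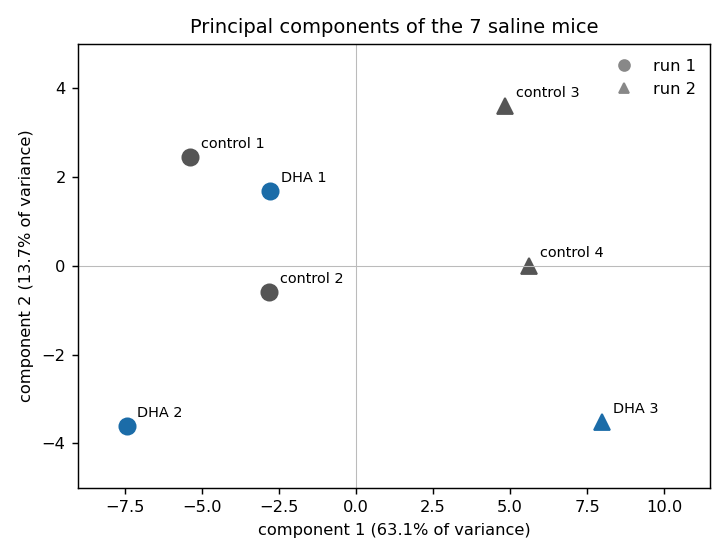
Scores of the 7 saline mice on the first principal components of log2(scaled count + 1) over 306 genes; grey is the control diet, blue the DHA diet, circles are run 1 and triangles run 2. Component 1 separates the runs, and on component 2 DHA mice 2 and 3 have the lowest scores while DHA mouse 1 lies among the controls.

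The same order was seen over the tested genes as a whole. The first principal component of log2(scaled count + 1) held 63.1% of the variance, and its scores were -7.43 to -2.79 on run 1 and 4.84 to 7.97 on run 2. The diets differed on it by -1.31 (exact permutation p = 0.886, two-sided, n = 3 and 4). Both diets were on each run, so a score that separates the runs cannot also separate the diets. This p therefore says little about diet. Component 2 held 13.7% of the variance. Here the DHA mice scored 1.68, -3.62 and -3.52 and the control mice 2.45, -0.58, 3.60 and -0.002, a difference of -3.18 (exact permutation p = 0.171). Itga2b and Ppbp, genes of platelets, had the largest weights at its high end, and Cfd, complement factor D, at its low end. Component 3 (8.27%) differed by 0.11 (exact permutation p = 0.943).

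Genes typical of neutrophils had the lowest median of all lists. The list holds 12 genes on the panel, and 4 were tested. All 4 had a lower mean on the DHA diet, with a median log2 fold change of -0.77, beside a median of -0.01 over all tested genes, and 3 of them were at the unadjusted threshold. S100a8 and S100a9 encode the subunits of calprotectin, a calcium and zinc binding protein that fills the neutrophil cytosol. S100a8 had 911, 1217, 2762 and 1391 scaled counts in control mice 1 to 4 and 785, 708 and 999 in DHA mice 1 to 3. Control mouse 3 was the highest of the 7, and control mouse 1 lay below DHA mouse 3, so the groups overlapped. The log2 fold change of S100a8 was -0.92 ± 0.37 (SE; unadjusted p = 0.0368, edgeR). S100a9 had 637, 976, 1725 and 1077 scaled counts in the control mice and 557, 429 and 756 in the DHA mice. As with S100a8, control mouse 3 was the highest and control mouse 1 the lowest of the controls. The log2 fold change of S100a9 was -0.92 ± 0.35 (unadjusted p = 0.0270, edgeR).

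Csf3r encodes the receptor for granulocyte colony-stimulating factor, which drives the formation and survival of neutrophils. It had 111, 128, 179 and 134 scaled counts on the control diet and 83.4, 107 and 81.96 on the DHA diet. The groups did not overlap, but the lowest control mouse and the highest DHA mouse were close. Its log2 fold change was -0.62 ± 0.23 (unadjusted p = 0.0244, edgeR). Camp and Gfi1 stayed below background in all 7 mice, and Cxcr2, a chemokine receptor of neutrophils, was under the count minimum with 60.5 ± 12.1 scaled counts on the control diet and 43.5 ± 6.6 on the DHA diet.

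The lower neutrophil values leaned on single mice. Without control mouse 3 the median log2 fold change was -0.48, and 0 of the 4 genes passed the unadjusted threshold. Without DHA mouse 1 it was -0.72, again with 0 genes, and without DHA mouse 2 it was -0.75 with 1 gene. TMM scaling also left 0 genes past the unadjusted threshold, at a median of -0.77. The median was -0.67 with run as a block, where 3 genes passed, -0.42 in run 1 alone by differences of mean log2 values and -0.88 in run 2. In whole lung, fewer cells of a type and less RNA per cell cannot be told apart.

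**Figure D2:**
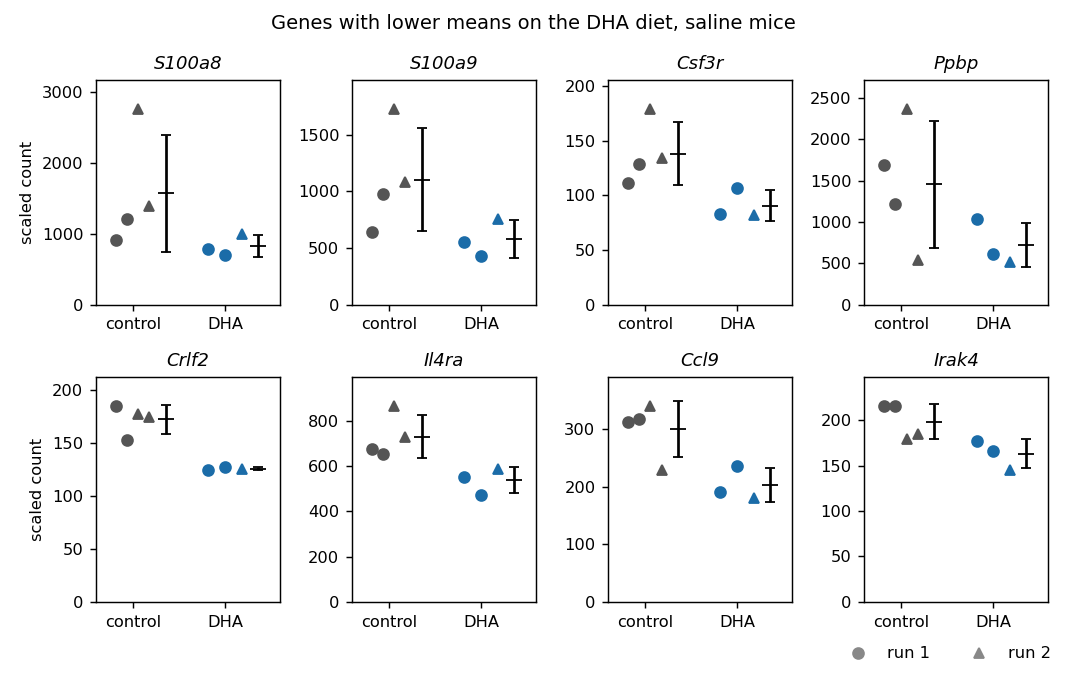
Scaled counts of 8 genes with lower means on the DHA diet in each of the 7 saline mice (grey, control diet; blue, DHA diet; circles, run 1; triangles, run 2); black bars are the group mean and SD. S100a8 was 911 to 2762 on the control diet and 708 to 999 on the DHA diet, and the groups did not overlap in Csf3r, Crlf2, Il4ra and Irak4.

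Platelet genes were the list next in order. Ppbp, the platelet basic protein that is cut into the chemokine NAP-2, had the most negative fold change of all tested genes. It had 1689, 1221, 2364 and 545 scaled counts in the control mice and 1030, 618 and 517 in the DHA mice. Control mouse 4 lay within the range of the DHA mice, and the log2 fold change was -1.01 ± 0.47 (unadjusted p = 0.0607, edgeR). Itga2b, the platelet integrin subunit CD41, had 301, 216, 258 and 80.0 scaled counts on the control diet and 271, 142 and 46.2 on the DHA diet. Its log2 fold change of -0.49 had a 95% interval from -1.87 to 0.89. Both genes were lowest in DHA mouse 3 and next lowest in control mouse 4, which are mice of run 2.

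Crlf2 and Il4ra, 2 of the genes at the unadjusted threshold, encode cytokine receptor chains and separated the diets in every mouse. Crlf2 encodes the receptor for thymic stromal lymphopoietin, an epithelial cytokine of allergic inflammation. It had 185, 153, 177 and 175 scaled counts on the control diet against 125, 127 and 126 on the DHA diet. All DHA mice lay below all control mice, with a log2 fold change of -0.45 ± 0.17 (unadjusted p = 0.0260, edgeR), and within the runs the log2 difference was -0.41 and -0.48. Il4ra, the chain shared by the receptors for IL-4 and IL-13, had 676, 654, 865 and 729 scaled counts in the control mice and 550.5, 474 and 587 in the DHA mice. The groups did not overlap, the log2 fold change was -0.44 ± 0.18 (unadjusted p = 0.0354, edgeR), and the differences within the runs were -0.38 and -0.44. Without single mice the unadjusted p of Crlf2 ran from 0.0178 to 0.0744 and that of Il4ra from 0.0291 to 0.122, with negative fold changes throughout.

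Il4ra was the only one of 7 tested genes in the list of alternative macrophage activation at the unadjusted threshold. The median of that list was -0.18, and 6 of the 7 genes lay below 0. Ccl9, a chemokine for myeloid cells found in mice, had 313, 317, 339 and 229 scaled counts on the control diet and 191, 236 and 179 on the DHA diet. Control mouse 4 lay just below DHA mouse 2. The log2 fold change of Ccl9 was -0.57 ± 0.21 (unadjusted p = 0.0269, edgeR), and the differences within the runs were -0.56 and -0.63. Irak4, the kinase that carries signals from Toll-like and IL-1 receptors, was below all controls in the DHA mice. It had 215, 215, 179 and 185 scaled counts on the control diet and 177, 166 and 145 on the DHA diet, a log2 fold change of -0.29 (unadjusted p = 0.146, edgeR). The separation was narrow between DHA mouse 1 and control mouse 3.

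**Figure D3:**
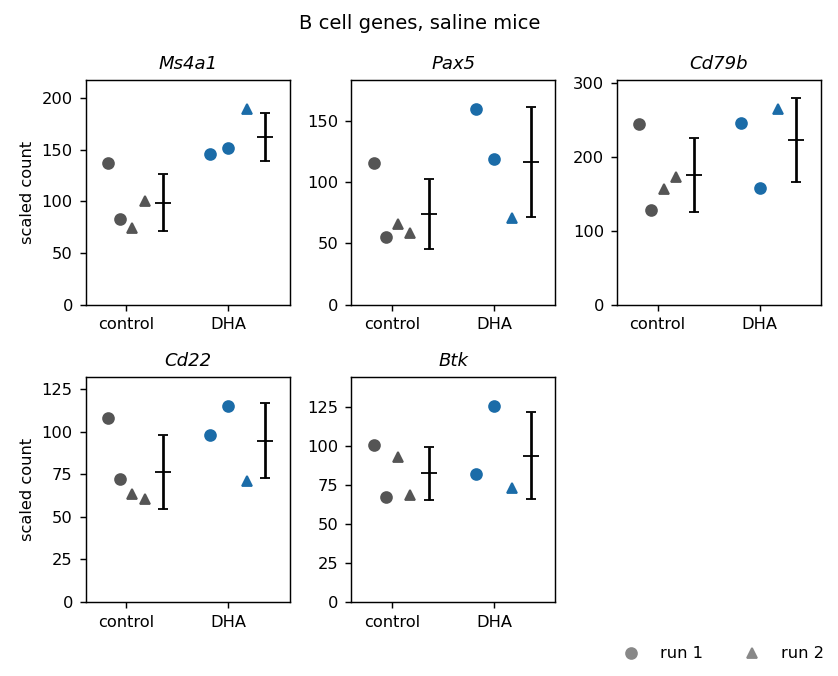
Scaled counts of 5 tested B cell genes in the 7 saline mice (grey, control diet; blue, DHA diet; circles, run 1; triangles, run 2); black bars are the group mean and SD. Ms4a1 was 74.6 to 137 on the control diet and 146 to 189 on the DHA diet, and the groups overlapped in the 4 other genes.

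B cell genes lay at the opposite end. Of 15 on the panel 6 were tested. All 6 had a higher mean on the DHA diet, with a median log2 fold change of 0.43, and 1 was at the unadjusted threshold. Ms4a1 had 137, 82.8, 74.6 and 99.9 scaled counts in the control mice and 146, 152 and 189 in the DHA mice. Its log2 fold change of 0.74 ± 0.25 had the smallest unadjusted p of all genes (0.0166, edgeR), and the differences within the runs were 0.48 and 1.12. Pax5, the transcription factor that sets B cell identity, had 116, 54.8, 65.9 and 58.7 scaled counts on the control diet and 159, 119 and 70.4 on the DHA diet. Control mouse 1 lay within the range of the DHA mice, and the log2 fold change was 0.66 with a 95% interval from -0.16 to 1.48.

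The other B cell genes described here had smaller differences. Cd79b, a signal subunit of the antigen receptor, had means of 175.5 ± 49.8 (SD, n = 4) and 223 ± 56.7 scaled counts (SD, n = 3). The log2 fold change was 0.31 for Cd22, an inhibitory receptor, and 0.17 for Btk, a signalling kinase that myeloid cells use too. The 6 tested genes summed to 840, 482, 563 and 568 scaled counts in the control mice and 929, 813 and 781 in the DHA mice, so that control mouse 1 exceeded DHA mice 2 and 3. These are low counts, and in DHA mouse 2 the background of 84.0 was a large part of them. With the negative controls subtracted the median of the list was 0.42, and no B cell gene passed the unadjusted threshold. Whether the background took part in the difference was not tested. The median was 0.28 without DHA mouse 1 and 0.58 without control mouse 1, and it was 0.19 in run 2 alone.

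Genes that B cells share with other antigen-presenting cells and lymphoid tissue had higher means as well, none at the unadjusted threshold. H2-Ob, a chain of the molecule that restrains peptide loading in B cells, had 135, 79.7, 72.2 and 76.1 scaled counts on the control diet and 151, 173 and 76.4 on the DHA diet, with a log2 fold change of 0.54. DHA mouse 3 was level with the lower controls. Ltb, the lymphotoxin beta subunit that maintains lymphoid tissue, had a log2 fold change of 0.44, and Ccr7, a homing receptor of lymphocytes and dendritic cells, one of 0.31. Of 9 tested MHC class II genes 8 lay above 0, with a median of 0.21, and their examples H2-Ab1 (0.21) and Cd74 (0.14) had the same sign as H2-Ob. Of 20 T cell markers 4 were tested, with a median of 0.13 and a range from -0.35 (Tcf7) to 0.15. Of 18 genes of NK and cytotoxic lymphocytes 3 were tested, with a median of 0.09. Ccl5, a chemokine of these cells, had a log2 fold change of 0.47 with a 95% interval from -0.31 to 1.26.

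**Figure D4:**
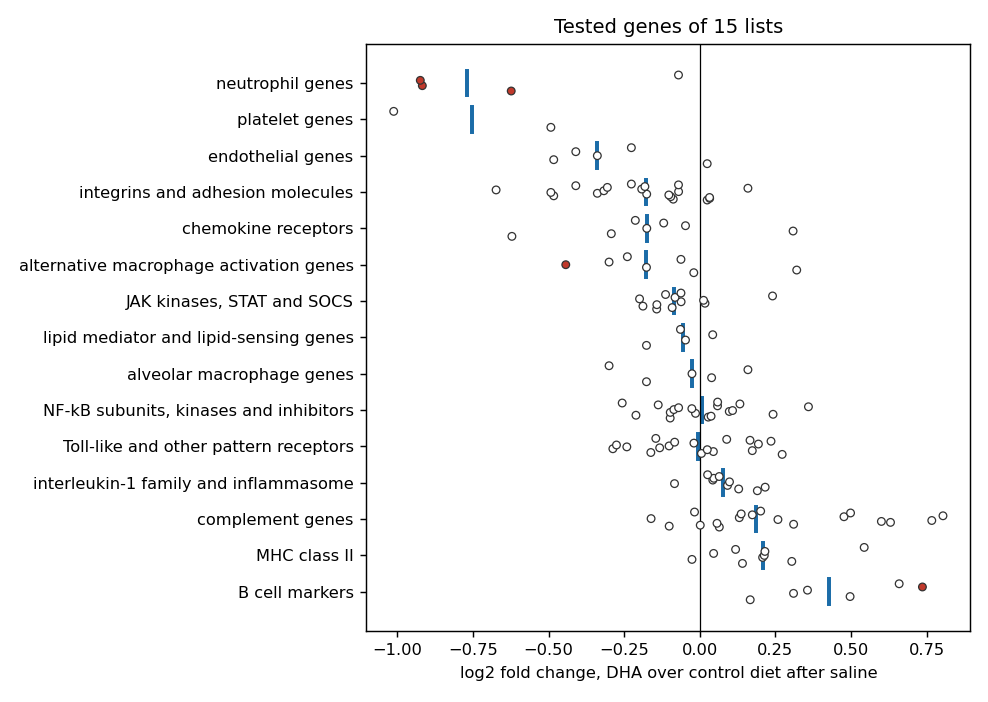
Log2 fold changes (DHA over control diet after saline) of the tested members of 15 gene lists; each point is a gene, red points are at the unadjusted threshold and blue lines are list medians. The medians run from -0.77 for neutrophil genes to 0.43 for B cell markers, and the 306 tested genes had a median of -0.01.

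Vessel and adhesion genes lay mostly below 0. Of 5 tested endothelial genes 4 were below 0, with a median of -0.34, and none was at the unadjusted threshold. Cdh5, the cadherin of endothelial junctions, had 2012, 1108, 2159 and 1925 scaled counts in the control mice and 1613, 1014 and 1237 in the DHA mice. Control mouse 2 was the exception among the controls, and it was also the lowest control for Pecam1. Pecam1, the CD31 molecule of endothelium and platelets, had means of 4208 ± 1137 (SD, n = 4) and 3166 ± 980 scaled counts (SD, n = 3), and Icam2 had a log2 fold change of -0.34. Among 20 tested integrins and adhesion molecules 16 lay below 0, with a median of -0.18. Itga6, the laminin-binding integrin chain of epithelium, endothelium and platelets, had the most negative value of that list. It had 863, 637, 1256 and 1249 scaled counts on the control diet and 700, 417 and 763 on the DHA diet, with a log2 fold change of -0.67 ± 0.31 (unadjusted p = 0.0586, edgeR).

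Several other genes were at the unadjusted threshold when the run was taken into account. Pdgfb, the growth factor by which endothelium recruits pericytes, had 1434, 1317, 1051 and 834 scaled counts on the control diet and 1045, 754 and 534 on the DHA diet. Within each run both control mice lay above every DHA mouse, and the log2 fold change went from -0.58 ± 0.28 (unadjusted p = 0.0725) to -0.69 ± 0.17 with run as a block (unadjusted p = 0.00301, adjusted p = 0.571, edgeR), the smallest p in that fit. Cxcl12, the chemokine that retains leukocytes and progenitors, had 1069, 758, 830 and 776 scaled counts on the control diet and 780, 587 and 514 on the DHA diet. Its log2 fold change was -0.45 without the block and -0.51 with it (unadjusted p = 0.0195). Ifngr1, a chain of the interferon gamma receptor, was lower within each run too, with 1429 and 1181 against 981 and 936 scaled counts on run 1 and 1718 and 1952 against 1469.7 on run 2. The 17 lower genes of the block fit also held Ccbp2 (a decoy receptor for chemokines, named Ackr2 today), Cdkn1a, Tgfb1, Pdgfrb, Plaur, Itga6, Irak4 and Ppbp beside the 6 lower genes of the fit without block.

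**Figure D5:**
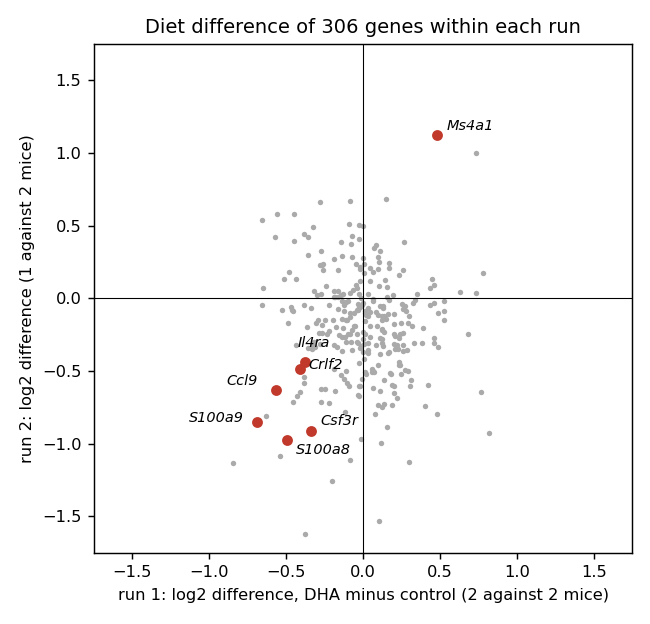
Log2 difference of mean log2 scaled counts, DHA minus control diet, within run 1 (x axis, 2 against 2 mice) and within run 2 (y axis, 1 against 2 mice); each grey point is 1 of 306 genes. The 7 genes at the unadjusted threshold over both runs are red. Each has the same sign in both runs, as 138 of the 306 genes do. The 7 genes were picked on these same mice, so their shared sign is not a replication.

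Most complement genes had log2 fold changes above 0, and several of the larger ones turned with 1 mouse. Of 18 tested genes 15 lay above 0, with a median of 0.19, and 0 were at the unadjusted threshold. C3, the central component of the cascade, had 10655, 6435, 2510 and 2328 scaled counts in the control mice and 5111, 17688 and 2138 in the DHA mice. DHA mouse 2 was the highest of all 7 mice, and DHA mouse 3 the lowest. The log2 fold change of C3 was 0.60 ± 0.75, and without DHA mouse 2 it was -0.60. C4a, C2, Cfb and Clu ranked the same mouse highest, with log2 fold changes of 0.77, 0.63, 0.48 and 0.50 that were -0.40, -0.59, -0.64 and -0.15 without it. C6, a subunit of the membrane attack complex, had 490 and 416 scaled counts in DHA mice 1 and 3, above the control mean of 402. Cfd, the protease of the alternative pathway that fat cells also make, was spread most widely. It had 171, 359, 71.4 and 561 scaled counts on the control diet and 179, 955 and 403 on the DHA diet. DHA mouse 2 was also the highest mouse for Cd14, the co-receptor for endotoxin (616 scaled counts, beside 171 to 428 in the others), and for Il1b (216, beside 99.3 to 148). The lane of this mouse had the lowest total and the highest background, and the part of these in its values was not tested.

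Genes of lipid mediators had fold changes near 0. Of 13 on the panel 4 were tested, and none was at the unadjusted threshold. Ptgs2 encodes cyclooxygenase 2, which makes prostaglandins from arachidonic acid. It had 186, 338, 136 and 173 scaled counts on the control diet and 191, 228 and 180 on the DHA diet, with a log2 fold change of -0.06 (95% interval -0.78 to 0.65). Cmklr1, a receptor for chemerin and for resolvin E1, had 1117, 953, 895 and 851 against 1240, 1062 and 473 scaled counts. DHA mouse 3 was far below the others, and the log2 fold change was -0.05 (-0.75 to 0.66). Ptafr, the receptor for platelet-activating factor, had a log2 fold change of 0.04 (-0.68 to 0.77). Cd36, a scavenger receptor and fatty acid transporter, was the most precisely measured, with 6769 ± 858 (SD, n = 4) and 5990 ± 667 scaled counts (SD, n = 3) and a log2 fold change of -0.18 (-0.59 to 0.24). A doubling or a halving lies outside the 95% intervals of these 4 genes.

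Macrophage genes gave no common direction. Of 9 alveolar macrophage genes 5 were tested, with a median of -0.03. Marco, a scavenger receptor by which these cells bind particles, had 176, 216, 144 and 91.0 scaled counts on the control diet and 109, 166 and 109 on the DHA diet, with a log2 fold change of -0.30 (95% interval -1.02 to 0.42). Itgax, which encodes CD11c of dendritic cells and alveolar macrophages, had 344 ± 117 (SD, n = 4) and 384.5 ± 88.2 (SD, n = 3) scaled counts and a log2 fold change of 0.16. Both Itgax and Ctss, a lysosomal protease, were higher on run 1 than on run 2 in the control mice. The log2 fold change was -0.03 for Ctss and 0.04 for Csf2rb, the shared receptor chain for GM-CSF. In the wider list of 12 monocyte and macrophage genes 5 lay above 0 and 7 below, and Cd163, a receptor for hemoglobin complexes, had a log2 fold change of 0.32.

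Inflammatory signalling genes lay close to 0. Among 18 tested genes of NF-kB signalling 9 were above and 9 below 0, with a median of 0.01 and the highest value in Traf1 (0.36). The 18 tested pattern receptors and their adaptors were split 9 and 9 as well, with a median of -0.01. Of 10 tested genes of the IL-1 family and inflammasome 9 lay above 0, yet the median was only 0.08. Of 12 JAK, STAT and SOCS genes 9 lay below 0, with a median of -0.09, and of 7 chemokine receptors 6, with a median of -0.18. Of 12 genes that were picked as examples of the response to HDE, 6 were tested, and they ran from -0.07 (Tnfaip3, an inhibitor of NF-kB) to 0.27 (Cd14). None of these lists held a gene at the unadjusted threshold.

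The genes that the study singled out for diet were also followed in the saline mice. For Cfb, Cxcl12, Itga6, Itgax, Pigr, Stat5b and Tgfbi the paper gives fold changes in this same comparison and marks none as significant. Some were picked on all 20 mice, these 7 among them, and are not independent evidence of a direction. Bcl3, Cfb, Lilrb3 and Marco were picked on the 13 mice given HDE. Of 10 such genes 9 were tested, 5 below 0 and 4 above, and none was at the unadjusted threshold. Itga6 (-0.67) and Cxcl12 (-0.45) had the most negative values, and Cfb (0.48) and Pigr (0.44) the highest. Pigr, the epithelial transporter of IgA, had 289, 528, 380 and 403 scaled counts on the control diet and 482, 912 and 251 on the DHA diet, so that the lowest and the highest mouse were both on the DHA diet. Marco had -0.30, Stat5b -0.11, Lilrb3 -0.02, Tgfbi 0.08 and Itgax 0.16. Bcl3 was under the count minimum, with 37.3 to 177 scaled counts on the control diet and 17.9 to 103 on the DHA diet.

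Epithelial genes were few on this panel. Of 5 genes 4 were tested, with Cd24a (0.37) and Pigr above 0 and Itga6 below. Of 6 endothelial genes 5, and of 9 alveolar macrophage genes 6, were above background in all 7 mice. Of 8 thymocyte genes 2, Tcf7 and Cd1d1, were above background in all 7 mice, Rag2 and Aire in none, and the other 4 in 1 to 6 mice. Surfactant protein genes, the usual markers of lung epithelium, were not analysed here. Tgfb3, a growth factor of the TGF-beta family, had a log2 fold change of 0.72, with 344, 190, 155 and 161 scaled counts on the control diet and 251, 671 and 133 on the DHA diet, and again DHA mouse 2 was the highest. Bst2, an interferon-induced tether of viruses, had 533 ± 85.9 (SD, n = 4) and 404 ± 57.3 scaled counts (SD, n = 3) and a log2 fold change of -0.40.

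The diet difference after saline was set against that after HDE in a model of the 4 groups and 20 mice. No gene passed the adjusted threshold for a difference between the 2 diet effects (smallest adjusted p 0.997, edgeR), and 9 of 358 genes passed at the unadjusted threshold (2.51%). In 8 of them the diet effect was more positive after saline. They include Thy1, Cd3d, Rag1, Lck, Ccl25, Ccr9 and Cd247, which are genes of T cells or thymus. A single mouse on the control diet with HDE had 5054 scaled counts of Rag1, the recombinase of developing lymphocytes, beside 3.98 to 66.2 in the 7 saline mice. Without that mouse 1 gene, Marco, passed at the unadjusted threshold, and 0 of the 8 did. The 8 also depended on saline mice. Of them 3 passed without control replicate 3, 2 without control replicate 4, 3 without DHA replicate 1 and 1 without DHA replicate 2, while 7 or 8 passed without each of the other saline mice. Marco, a scavenger receptor of macrophages and the remaining gene, did not pass without control replicate 1 or 2 or DHA replicate 1 or 3. It had a log2 fold change of -0.30 after saline and 1.06 after HDE, a difference of -1.36 ± 0.62 (unadjusted p = 0.0393, adjusted p = 0.997). For S100a8 the diet effect was -0.92 after saline and 0.71 after HDE, and the difference of -1.63 ± 1.06 did not pass (unadjusted p = 0.140, edgeR). S100a8 ranged from 466 to 16798 scaled counts on the control diet with HDE and from 2785 to 37455 on the DHA diet with HDE. A single mouse on the control diet with HDE, at 466, lay below all 7 saline mice. Without it 12 genes passed at the unadjusted threshold. Ms4a1 had a log2 fold change of 0.73 after saline and 0.30 after HDE (difference 0.42, unadjusted p = 0.288).

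Single mice decided how many genes stood out at the unadjusted threshold. Without control mouse 3 the 6 lower genes became 0 and 1 of the 7 genes still passed. Without DHA mouse 1 the lower count was 4, but again 1 of the 7 passed. The lower count was 3 without DHA mouse 2, 13 without control mouse 2 and 10 without DHA mouse 3. The count of higher genes was 11 without DHA mouse 3 and 3 without control mouse 1. In every one of these sets the 7 genes kept their direction, and no gene passed the adjusted threshold. The 7 genes were picked on the same mice, so the kept direction is not independent evidence.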

How the data were processed

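Left lung RNA (50 to 100 ng) was hybridized for 16 h with the NanoString mouse Immunology codeset and counted on an nCounter Sprint profiler. The authors deposited raw counts per probe, with no background subtracted, and normalized values exported from nSolver 4.0. The deposited normalized values, taken here as a signal, equalled the raw counts divided by the lane factor of 4 housekeeping genes, times 1.18, to within 9.43e-05 for raw counts of at least 100. Groups were taken from the sample labels. Replicate numbers follow the order of the samples and pair nothing, and the p-values set a difference against the variation between mice.

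The main test was that of edgeR 4.0.16 in R 4.3.3 (quasi-likelihood on raw counts, 2 groups, lane sizes from the 4 genes), with Benjamini-Hochberg adjustment over 306 genes. The unadjusted threshold of 0.05 is given because the paper's methods used raw p-values. DESeq2 1.42.0, limma 3.58.1 on log2(value + 1) and an ordinary linear model were alternatives, beside other scalings, filters, background subtraction, the run and single mice left out. The fit was tested on simulated counts. Total counts were 123536 to 486020 per mouse. The small groups limit the precision. No 2 lanes matched within counting noise (lowest chi-square per degree of freedom 7.7 over 21 pairs). No column was left unused. Of 547 names 531 equalled a RefSeq symbol and 13 matched by accession. The members and the 36 gene lists were chosen with earlier results of these data known. Genes named are the 10 per direction with the smallest p, the study's genes, all tested lipid mediator and alveolar macrophage genes, up to 3 per list and those of the smallest p for the difference between exposures. Others, among them the complement genes, Camp, Gfi1 and Cxcr2, were chosen after their values were seen. Some genes that this rule names are not reported here.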

Additional observations from a re-analysis of the deposited data

Results flagged for a closer look

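In the 4 control mice given saline, 1 mouse stood far from the other 3 in 4 of the 63 genes checked (a gap to its neighbour beyond Dixon's critical share of the range). Chance flags about 1 in 20 such groups, and the genes share the same mice. Control mouse 1 had 135 scaled counts of H2-Ob, beside 72.2 to 79.7 in the other controls, and 295 of Ccbp2, beside 165 to 175. It also had 2474 of Icam2, beside 1397 to 1466. Control mouse 2 had 87.9 scaled counts of Casp1, beside 103 to 106. The 3 DHA mice are too few for this check.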

How the results depend on the processing

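Under every alternative run, 0 genes passed the adjusted threshold for diet after saline. The number of genes past the unadjusted threshold of 0.05 (1 higher, 6 lower) moved. Of these 7 genes, 2 passed with TMM, 3 with all 14 housekeeping probes, 3 with DESeq2's own size factors and 1 in the 4-group model. The higher count was 3 with TMM, 4 with DESeq2's own size factors, 0 with the negative controls subtracted, 2 without a count filter, 2 with a mean of at least 20 and 0 with at least 82 in all 7 mice. The lower count was 11 with DESeq2 and the 4 housekeeping genes, 17 with run as a block and 0 in the 4-group model. In run 2 alone, with 1 DHA mouse whose spread is assumed to be that of the controls, 16 were higher and 57 lower. With a mouse left out they were 1 to 11 and 0 to 13. Run as a block without DHA mouse 2, chosen after seeing the data as were the list counts, gave 18 lower. The cause of these moves was not tested.

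Genes without overlap (1 higher, 4 lower) were 5 higher with TMM, 36 higher and 50 lower in run 1 alone, where fewer mice have to separate, and 1 to 30 higher and 7 to 27 lower with a mouse left out. The diet test on component 1 stayed above 0.05 throughout, which says little where the component separates the runs. With run means removed its exact permutation p was 0.143. The genes whose diet effect differed between exposures at an unadjusted p of at most 0.05 (9) were 1 to 12 with a mouse left out and 9 to 11 otherwise.

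Of 63 genes followed, 31 kept their sign under all alternatives and 32 did not, for causes that were not tested. With TMM Ctss was 0.097. With 14 housekeeping probes Ptafr was -0.036, Ctss 0.0045, Csf2rb -0.027 and Il1b -0.016, and with DESeq2's own size factors they were -0.036, 0.073, -0.0023 and -0.0060. With limma and the linear model Ptgs2 was 0.018 and Ctss 0.010. With negative controls subtracted Btk was -0.028, Ptafr -0.22, Thy1 -0.040, Csf2rb -0.058 and Il1b -0.029. With run as a block Ptafr was -0.11 and Csf2rb -0.060. In run 1 alone Itgax was -0.024, Stat5b 0.043, Tgfbi -0.072, Cmklr1 0.15 and Tnfaip3 0.019. In run 2 alone Btk was -0.12, Ltb -0.020, Tgfb3 -0.25, C3 -0.18, C4a -0.045, Cfb -0.019, Pigr -0.64, Cd36 0.044, Ptgs2 0.21 and Ptafr -0.35, and Ctss was 0.58, Csf2rb -0.16, Clu -0.026, Il1b -0.25, Cd14 -0.35, H2-Ab1 -0.11, Traf1 -0.098, Gzma -0.97, Cd163 -0.030 and Cd24a -0.15. With the block and without DHA mouse 2 Btk was -0.078, Tgfb3 -0.16, C3 -0.45, C4a -0.30, C2 -0.37, Cfb -0.47 and Cfd -0.072, and Pigr was -0.19, Ptafr -0.23, Ctss 0.12, Csf2rb -0.098, Clu -0.12, Il1b -0.31, Cd14 -0.42 and Gzma -0.053.

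With a mouse left out, the ranges that crossed 0 were -0.21 to 0.18 for Lilrb3, -0.32 to 0.27 for Cmklr1, -0.15 to 0.15 for Ctss, -0.68 to 0.11 for Cdkn1a, -0.22 to 0.27 for Ptgs2, -0.40 to 0.10 for Plaur, -0.21 to 0.32 for Ptafr and -0.090 to 0.23 for Csf2rb. DHA mouse 2 alone turned Btk (-0.081 to 0.33), Tgfb3 (-0.15 to 1.12), C3 (-0.60 to 1.14), C4a (-0.40 to 1.24), C2 (-0.59 to 1.14), Cfb (-0.64 to 0.92), Pigr (-0.13 to 0.80), Clu (-0.15 to 0.86), Il1b (-0.31 to 0.29), Cd14 (-0.43 to 0.60) and Gzma (-0.018 to 0.52). DHA mouse 3 alone turned Stat5b (-0.22 to 0.050), Thy1 (-0.093 to 0.24), Tnfaip3 (-0.16 to 0.066) and Tgfb1 (-0.47 to 0.050), and DHA mouse 1 alone turned H2-Ab1 (-0.016 to 0.47). No paired analysis was possible because the replicate numbers come from the order of the samples. In DHA mouse 2 the background was 84.0 scaled counts, which 303 of the 306 tested genes exceeded. The others, and genes whose count in this mouse lay close to 84.0, cannot be told from background.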
